A study of Mus musculus with 24 samples.

Results

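The T-box genes Tbr1 and Eomes were examined for peaks of 3 transcriptional regulators (TRs) in embryonic mouse cortex. Each region was the gene body in GENCODE vM21 on GRCm38 plus 200 kb on either side, and every peak overlapping it by at least 1 base was taken. Of 314954 peaks on the main chromosomes in 6 peak lists, 199 lay in these regions, 116 at Tbr1 and 83 at Eomes. The members are 2 of the 21951 protein-coding genes of the annotation. Tbr1 (ENSMUSG00000035033.15) lies on the plus strand at chr2:61802930-61814114, and Eomes (ENSMUSG00000032446.14) on the plus strand at chr9:118478212-118486132.

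T-box factors bind DNA through the T domain that gives the family its name. In the developing cortex, radial glia give rise to intermediate progenitors, which express Eomes (also called Tbr2), and the glutamatergic neurons born from them then turn on Tbr1. Tbr1 is best known for its role in the identity of early-born neurons of the deep layers and the subplate. Peaks at the promoters, gene bodies and surroundings of both genes are places where chromatin of the cortex was enriched with an antibody to another regulator.

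The chromatin came from wild-type (WT) cortex of embryos at 2 stages, E15.5 and the later E18.5 (E stands for embryonic day), and the study kept its wild-type mice on a CD1 background. It was precipitated with antibodies against ARID1B, which belongs to nucleosome-remodeling BAF complexes, FOXP1, of the forkhead family, and TCF7L2, an HMG-box factor that partners beta-catenin in Wnt signalling. The labels write TCF4 for the last of these, and the name in the study's antibody list is used here. Each TR and stage had 2 ChIP libraries and 2 input libraries, 24 in all, but only 1 peak list made from merged replicates. Differences between lists therefore have no replicate check, no p-value is given, and the 95% intervals cover the counting error of the reads at a summit alone. The tissue was whole cortex, so that fewer cells with a bound site cannot be told apart from less binding in each cell. Binding of TBR1 itself was not analysed here.

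A peak's height is given as fold enrichment, the reads piled up at its summit over a background level that was constant within a list, with 1 added to both. The deposited folds therefore carry no correction for local input. The lists held between 24890 peaks (FOXP1 at E18.5) and 71442 peaks (ARID1B at E15.5). The background recovered from the deposited values was 2.81 reads for FOXP1 at E18.5 and 6.13 to 8.63 reads for the other lists. It is counted after scaling to the smaller of ChIP and input, while reads at a summit are given as unscaled ChIP reads. The lowest fold called was 3.21 in the FOXP1 list at E18.5 and 2.33 to 2.66 in the other 5 lists, so that low sites could be called least readily in the former. FOXP1 values are set between stages with this gap in view, and each is read beside all FOXP1 peaks of the genome.

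Distances are counted from the first base of the first protein-coding transcript of each gene, with minus signs upstream. The sequences on which the results turn are printed here from GRCm38, plus strand, 5′ to 3′. The 250 bases before the RefSeq (GRCm38.p6) start of each gene come first, because peaks of all 3 TRs were called over or next to both. Capitals mark AGGTGNCA or its reverse complement, a T-box-like run that was chosen after these sequences were seen.
Tbr1 promoter, chr2:61804203-61804452: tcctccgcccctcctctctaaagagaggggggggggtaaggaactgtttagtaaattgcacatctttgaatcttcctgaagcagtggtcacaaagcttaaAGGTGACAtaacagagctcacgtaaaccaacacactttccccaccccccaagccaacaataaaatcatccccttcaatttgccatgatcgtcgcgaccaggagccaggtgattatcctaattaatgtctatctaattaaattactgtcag
Eomes promoter, chr9:118477939-118478188: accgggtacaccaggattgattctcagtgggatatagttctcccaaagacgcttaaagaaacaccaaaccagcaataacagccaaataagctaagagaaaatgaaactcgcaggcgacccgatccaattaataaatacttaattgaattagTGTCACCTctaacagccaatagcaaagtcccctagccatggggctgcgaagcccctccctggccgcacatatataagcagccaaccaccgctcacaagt
The windows of 200 bases around the highest summits within the gene body of Tbr1 and upstream of Eomes follow, together with the upstream intergenic window of Tbr1 that carried peaks in all 6 lists. A pair of windows that hold an exact Eomes consensus close the set. In these windows capitals mark the Tbr1 or Eomes consensus with at most 1 mismatch.
Tbr1 last exon, chr2:61812136-61812335: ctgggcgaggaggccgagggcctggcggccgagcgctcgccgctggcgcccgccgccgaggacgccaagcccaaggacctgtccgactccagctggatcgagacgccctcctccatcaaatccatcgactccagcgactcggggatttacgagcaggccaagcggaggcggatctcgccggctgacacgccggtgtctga
Eomes −22.6 kb, chr9:118455520-118455719: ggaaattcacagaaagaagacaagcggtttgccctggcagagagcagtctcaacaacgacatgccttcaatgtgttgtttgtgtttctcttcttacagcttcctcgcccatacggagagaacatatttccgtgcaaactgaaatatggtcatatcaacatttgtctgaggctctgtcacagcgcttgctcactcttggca
Tbr1 −148 kb, chr2:61656354-61656553: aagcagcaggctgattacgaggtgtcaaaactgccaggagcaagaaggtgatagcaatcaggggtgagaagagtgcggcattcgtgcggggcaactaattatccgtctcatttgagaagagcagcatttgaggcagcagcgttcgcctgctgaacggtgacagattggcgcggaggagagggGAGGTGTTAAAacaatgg
Eomes −88.2 kb, chr9:118389958-118390157: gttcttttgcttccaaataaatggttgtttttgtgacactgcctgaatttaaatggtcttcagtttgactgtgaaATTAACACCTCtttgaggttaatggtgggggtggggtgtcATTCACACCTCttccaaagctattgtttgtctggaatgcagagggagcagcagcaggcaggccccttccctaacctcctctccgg
Tbr1 −53 kb, chr2:61751408-61751607: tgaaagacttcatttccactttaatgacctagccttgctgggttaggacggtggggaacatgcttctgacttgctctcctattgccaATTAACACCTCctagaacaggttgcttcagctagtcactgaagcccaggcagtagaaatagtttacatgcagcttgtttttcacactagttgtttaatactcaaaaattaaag
Only the last 3 windows hold capitals. The last exon window of Tbr1 is coding sequence with a GC content of 70%, against 41.5% to 53% in the other 4 windows.

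Both regions held more peaks than the median region. There were 282 peaks per Mb at Tbr1 and 203 at Eomes, against a median of 167 over the same kind of region of 20807 autosomal protein-coding genes. The count at Tbr1 was above that of 74.6% of these regions and the count at Eomes above that of 59.5%, and neighbouring regions overlap each other. In the Tbr1 region ARID1B had 28 peaks at E15.5 and 30 at E18.5, FOXP1 had 24 and 5, and TCF7L2 had 14 and 15. In the Eomes region ARID1B had 18 and 16, FOXP1 had 17 and 3, and TCF7L2 had 12 and 17. Around both genes FOXP1 peaks were fewer at the later stage, as they were in the whole list.

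The regions were laid out differently. At Tbr1, 13 peaks lay in the promoter windows (2000 bp upstream of any TSS), 16 elsewhere in the gene, 67 upstream and 20 downstream. At Eomes, 12 lay in promoter windows, 1 elsewhere in the gene, 27 upstream and 43 downstream. Of the 116 summits at Tbr1, 36 fell in introns of Psmd14, the proteasome subunit gene that ends just upstream of Tbr1, and 44 were intergenic. Between +33 kb and +163 kb of Tbr1 there was 1 peak, of ARID1B at E18.5, at 92.67 kb and with a fold of 3.23. Of the 83 summits at Eomes, 47 were intergenic.

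**Figure D1:**
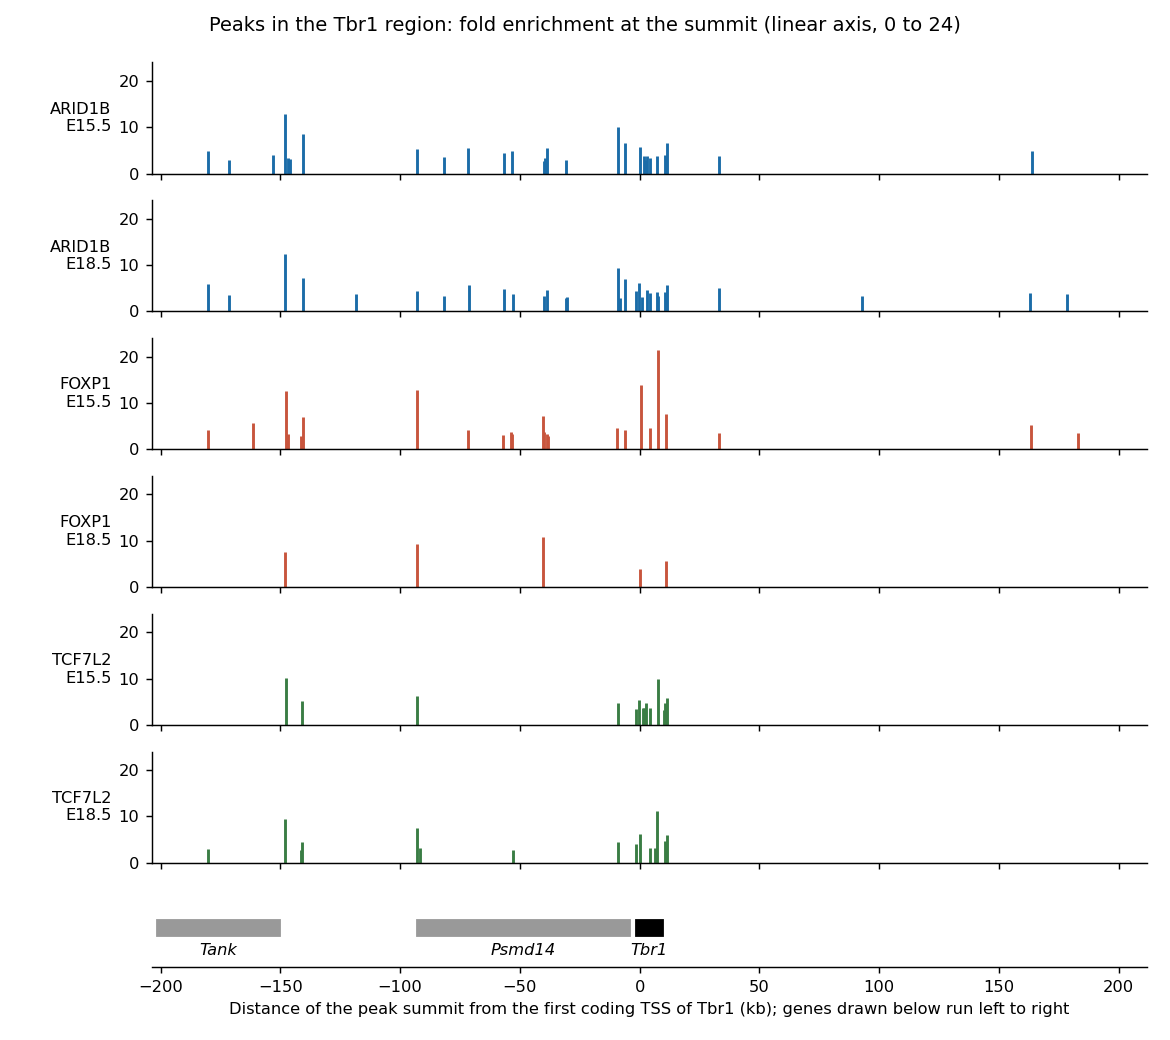
Peaks of the 3 TRs at E15.5 and E18.5 around Tbr1, with each vertical line at a peak's summit and its height the fold enrichment (linear scale), against distance from the first coding TSS in kb. Grey bars are other genes and the black bar is Tbr1. Most of the 116 peaks lie between the −148 kb locus and the gene's 3′ end, and the tallest line is FOXP1 at E15.5 inside the gene, at 21.5.

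**Figure D2:**
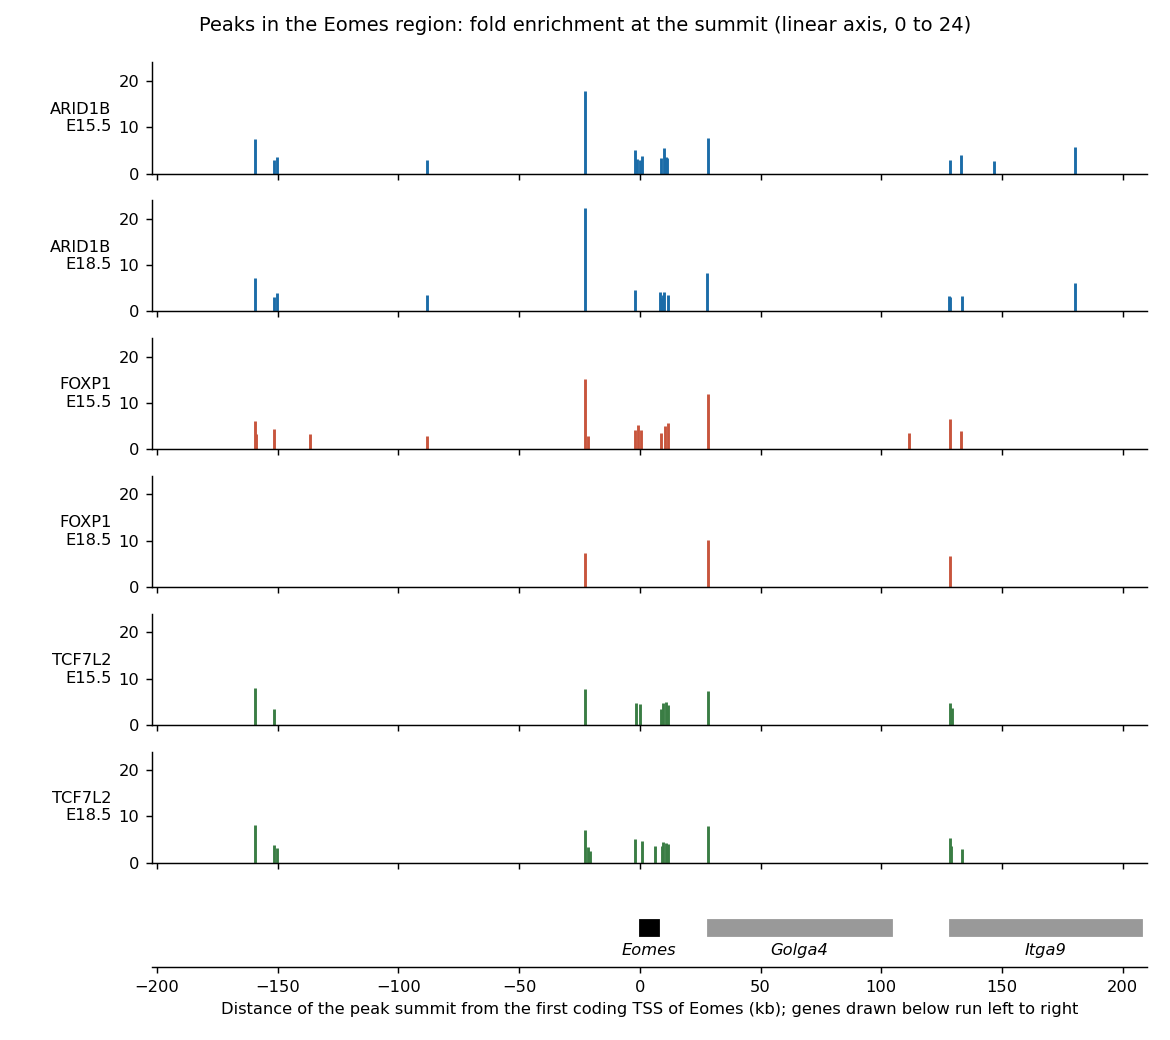
The same plot around Eomes, with fold enrichment on a linear scale against distance from the first coding TSS in kb, grey bars for other genes and a black bar for Eomes. The ARID1B lines at −22.6 kb (E15.5 17.9, E18.5 22.3) stand above all others of the 83 peaks, and the lines at the Eomes promoter reach 5.19 at most.

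The Tbr1 promoter carried a peak in all 6 lists and the Eomes promoter in 5. Such peaks are common, since 51.8% of protein-coding genes had a promoter peak in all 6 lists. Within single lists the share at E15.5 was 58.8% for ARID1B, 61.8% for FOXP1 and 57.3% for TCF7L2, while the E18.5 lists gave 57.3%, 55% and 61.2%. A promoter peak is therefore no mark of these genes, and the heights are given for each list.

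At the Tbr1 promoter ARID1B reached a fold of 5.70 (95% interval 4.41 to 7.27) in the E15.5 list and 6.03 (4.39 to 8.10) in the E18.5 list, above 61.7% and 57.4% of the genes with an ARID1B promoter peak. TCF7L2 gave 5.35 (4.01 to 7.02) and 6.13 (4.64 to 7.95), above 29.2% and 41.4% of such genes. For these TRs the intervals of the stages overlapped. FOXP1 gave 13.9 (11.5 to 16.8) at E15.5, in a peak 5073 bp wide that ran across the promoter and the first 4 exons of the longest transcript. At E18.5 the FOXP1 peak was 456 bp wide with a fold of 3.94 (2.64 to 5.69). At E15.5 this exceeded 75.6% of genes with a FOXP1 promoter peak, and the E18.5 value exceeded 0.837% of them. The intervals of these FOXP1 values did not overlap.

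The highest ARID1B summits lay at −36 and −79 bp of the Tbr1 TSS, and the highest TCF7L2 summits at −44 and 145 bp. The FOXP1 promoter summits were inside the gene, at 668 bp (E15.5) and 226 bp (E18.5). The E15.5 FOXP1 summit lies in the coding part of the opening exon.

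The Eomes promoter was lower in every list. ARID1B gave 4.99 (3.79 to 6.47) at E15.5 and 4.63 (3.21 to 6.48) at E18.5, above 42.9% and 23.8% of genes with such a peak. TCF7L2 gave 4.62 (3.38 to 6.18) and 5.14 (3.80 to 6.83), above 17.4% and 26.1%. FOXP1 gave 5.19 (3.74 to 7.02) at E15.5, above 14.2%, and no peak at E18.5. The summits of these highest peaks lay at −1937 and −1971 bp for ARID1B, −1638 and −1814 bp for TCF7L2, and −885 bp for FOXP1. Eomes had other, lower promoter peaks on both sides of these. At E15.5, ARID1B had summits at −1058 bp (3.13), −5 bp (3.04) and 1052 bp (3.84), FOXP1 at −2011 bp (4.18) and 641 bp (4.05), and TCF7L2 at −80 bp (4.41). At E18.5, TCF7L2 had one at 742 bp (4.71). Of the TRs, FOXP1 differed most between the promoters at E15.5, at 13.9 for Tbr1 and 5.19 for Eomes, with intervals that did not overlap, while those of ARID1B and TCF7L2 overlapped at both stages.

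The promoters of the members are alike in base composition. GC content was 45.2% for Tbr1 and 46.4% for Eomes, against a median of 52.4% over 32841 RefSeq promoters of the same length. Both hold AGGTGNCA, starting, as counted from the RefSeq start, at −150 at Tbr1 and at −99 on the reverse strand at Eomes, as do 4.6% of all promoters on either strand. Counted likewise, the best local alignment of the printed promoters paired 28 identical bases over 36 bases of Tbr1 (−37 to −2) and 35 of Eomes (−129 to −95), an AT-rich stretch in both. Of 32840 other promoters, 26 scored higher against Tbr1 than Eomes did, and 12 scored higher against Eomes than Tbr1 did. The consensus sequences of Tbr1, Eomes, FOXP1 and TCF7L2 from the study's motif table had no exact match in either promoter on either strand.

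The gene bodies were covered by peaks to different extents. The annotated body of Tbr1 begins at −1523 bp of its first coding TSS and so takes in promoter peaks, while that of Eomes begins at its TSS. At E15.5, ARID1B peaks covered 47.1% of the 11185 bp of Tbr1, FOXP1 peaks 74.4% and TCF7L2 peaks 60.3%. At E18.5 the shares were 39.4%, 4.1% and 74.7%. Of the 7921 bp of Eomes the E15.5 lists covered 10.9%, 13.8% and 14.3%, and the E18.5 lists 0, 0 and 20.1%. TCF7L2 and FOXP1 lay over much of Tbr1 at E15.5, and of this pair TCF7L2 still did at E18.5. Of 27 summits in the body of Tbr1, 18 fell in exons, 12 of them in coding exons, and exons make up 49.0% of the body. All 4 summits in the body of Eomes fell in coding exons.

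The highest peak of the Tbr1 region covered the gene's last exon. This exon, chr2:61811583-61814114 (2532 bp), holds the end of the coding sequence and the 3′ untranslated part. FOXP1 at E15.5 had a fold of 21.5 (18.4 to 25) there, from 169 reads, and ranked 387th in its list. The peak, chr2:61811434-61814224, took in the whole exon, with its summit at exon position 654, in coding sequence (the window printed above). TCF7L2 was also high over the same exon, with 9.95 (8.06 to 12.1) at E15.5 and 11.3 (9.21 to 13.7) at E18.5, ranks 752 and 475. ARID1B had low peaks there, of 3.75 (2.72 to 5.05) at E15.5 and of 4.21 (2.86 to 5.98) and 3.37 (2.19 to 4.98) at E18.5. ARID1B was the lowest of the TRs over this exon in the lists that had a peak there.

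FOXP1 had no peak over the last exon of Tbr1 at E18.5. In the FOXP1 list at E15.5, 11 distal peaks (outside all promoter windows) had a fold of at least 21.5, the Tbr1 peak being the lowest of them. The other 10 had an overlapping FOXP1 peak at E18.5, with folds from 6.59 to 46.5, and the share without one was 9.09%, the Tbr1 exon alone. The set and its cut-off were chosen after the Tbr1 value was known. Over all FOXP1 peaks at E15.5, 65.8% had no overlapping peak at E18.5.  At Eomes, the last exon carried a single peak, of TCF7L2 at E18.5 with a fold of 3.61 (2.51 to 5.05).

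Just past the 3′ end of Tbr1, peaks of all 6 lists met again. Here ARID1B had 6.5 and 5.75 (E15.5 and E18.5), FOXP1 7.59 and 5.71, and TCF7L2 5.88 and 6.02. At E18.5 FOXP1 had a peak at the promoter and another past the 3′ end of Tbr1, and none between them.

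**Figure D3:**
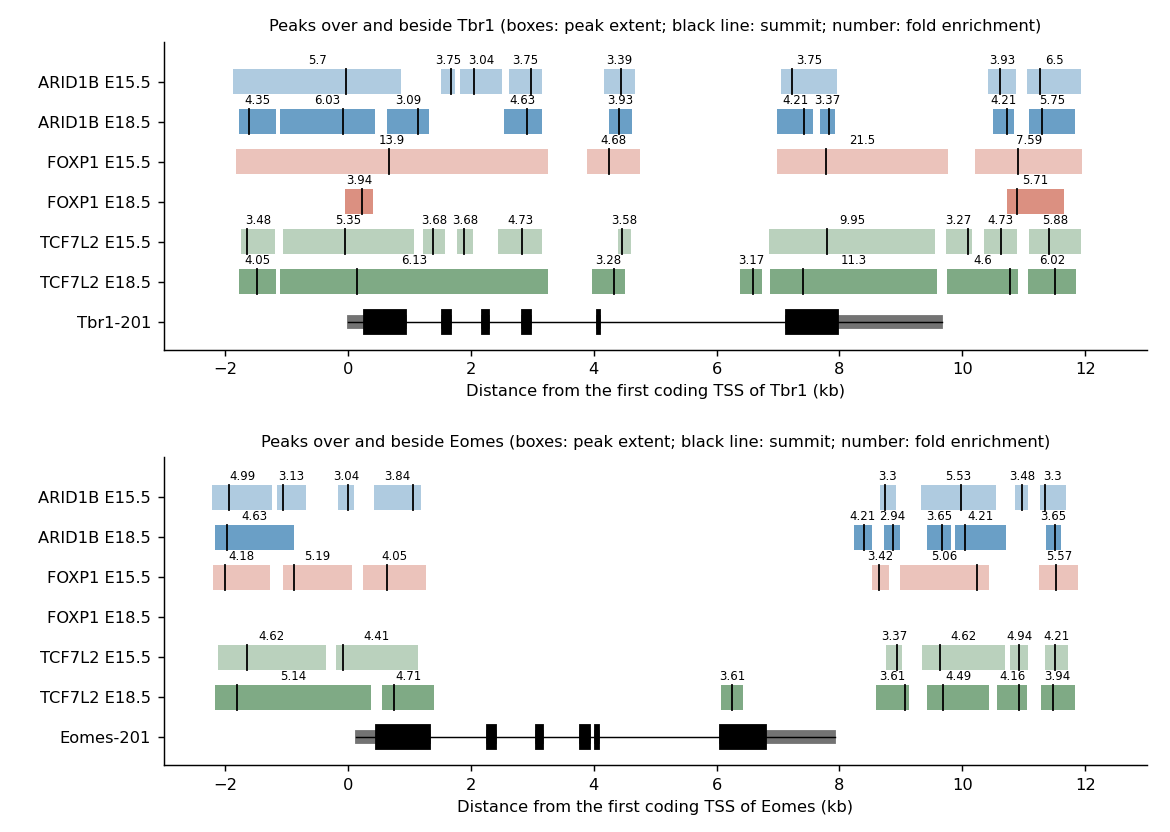
Peaks over the bodies of Tbr1 and Eomes, each box the extent of a peak, the line in it the summit and the number its fold enrichment, against distance from the first coding TSS in kb, with exon models of a coding transcript of each gene drawn below. FOXP1 at E15.5 spans the promoter and the last exon of Tbr1 (13.9 and 21.5). At E18.5 FOXP1 has a peak of 3.94 at the promoter and one of 5.71 past the 3′ end. Within Eomes, peaks lie at its 5′ end, except for TCF7L2 at 3.61.

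Over each whole region, gene body and promoter included, overlapping peaks of all lists joined into 33 loci at Tbr1 and 18 at Eomes. At Tbr1, 11 loci had a peak in 1 list and 4 in all 6, and at Eomes 6 and 3. The last exon of Tbr1 and the stretch just past it formed 1 such locus. Loci with peaks at both stages numbered 21 at Tbr1 and 12 at Eomes, against 5 and 3 at E15.5 only and 7 and 3 at E18.5 only.

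The highest peak of either region was ARID1B at −22.6 kb of Eomes, an intergenic locus at chr9:118455100-118456783. ARID1B had 17.9 there at E15.5, from 200 reads, and 22.3 (19 to 26) at E18.5, from 158 reads, ranks 76 and 35 of their lists. FOXP1 had 15.2 (12.6 to 18.1) and 7.33 (5.47 to 9.63). TCF7L2 had 7.75 (6.11 to 9.72) and 7.01 (5.41 to 8.93). The highest summit of each list lay within 60 bp of the others. In all 5 lists with a peak at the Eomes promoter the fold was higher at this locus, with intervals apart for ARID1B and FOXP1 and overlapping for TCF7L2.

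Tbr1 has a counterpart at −148 kb, an intergenic locus at chr2:61654633-61657435 just past the end of Tank, a gene of NF-kappaB signalling. ARID1B had 12.8 (10.8 to 15.1) and 12.3 (9.91 to 15.2) there, FOXP1 12.5 (10.2 to 15.2) and 7.47 (5.60 to 9.80), and TCF7L2 10.1 (8.16 to 12.3) and 9.52 (7.64 to 11.7). The 6 highest summits spanned 251 bp. For ARID1B and TCF7L2 the stages overlapped in their intervals, and for FOXP1 they did not.

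Several loci had a FOXP1 peak at E15.5 alone. In a Psmd14 intron at −9.08 kb of Tbr1, ARID1B had 10.1 (8.30 to 12.1) and 9.40 (7.30 to 11.9), TCF7L2 4.73 and 4.38, and FOXP1 4.56. At −141 kb of Tbr1, ARID1B had 8.64 and 7.15, TCF7L2 5.15 and 4.49, and FOXP1 6.96. At −159 kb of Eomes, TCF7L2 had 7.86 and 8.21, ARID1B 7.39 and 7.15, and FOXP1 6.08, with the highest summit of each list within a span of 59 bp. At 11.5 kb, beside the start of the antisense transcript Gm33460, FOXP1 had 5.57, TCF7L2 4.21 and 3.94, and ARID1B 3.30 and 3.65. These 4 places were described for this pattern, and 65.8% of all FOXP1 peaks at E15.5 had no overlapping peak at E18.5.

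Besides the Tbr1 promoter, the remaining loci with peaks in all 6 lists were promoters of neighbouring genes. The Psmd14 promoter had FOXP1 at 12.8 and 9.39, and the Golga4 promoter, of a golgin of the trans-Golgi network, had FOXP1 at 11.9 and 10.1. The Itga9 promoter, of an integrin subunit, had FOXP1 at 6.45 and 6.74. A FOXP1 peak at both stages was a condition of this choice of loci.

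All 3 TRs met at 8 of 27 loci in the Tbr1 region at E15.5 and at 4 of 30 at E18.5. In the Eomes region they met at 8 of 17 and 3 of 18. Outside all promoters the counts at Tbr1 were 6 of 21 (28.6%, 95% Wilson interval 13.8% to 50%) and 2 of 23 (8.70%, 2.42% to 26.8%). At Eomes they were 4 of 12 (33.3%, 13.8% to 60.9%) and 1 of 12 (8.33%, 1.49% to 35.4%). Over the genome 18.1% of distal loci at E15.5 and 10.4% at E18.5 held all 3 TRs. At promoters the genome shares were 65.7% and 57%, against 2 of 6 and 2 of 7 at Tbr1 and 4 of 5 and 2 of 6 at Eomes. With so few loci the intervals of the distal shares took in the genome share at both genes and both stages.

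Between the stages, ARID1B and TCF7L2 peaks around the members mostly stayed in the lists. Of the E15.5 peaks in the Tbr1 region, 22 of 28 for ARID1B and 14 of 14 for TCF7L2 overlapped a peak at E18.5, and at Eomes 14 of 18 and 12 of 12. The median log2 ratio of fold enrichment (E18.5 over E15.5) over these peaks was 0.08 and 0.19 at Tbr1 and 0.11 and 0.08 at Eomes. Over all pairs of the lists it was 0.12 for ARID1B, and for TCF7L2 0.09 at promoters and 0.06 elsewhere. The TCF7L2 value at Tbr1 counts an E18.5 peak of 6.13 once for each E15.5 peak it overlaps, and so is raised by repeated use of 1 peak. For FOXP1, 5 of 24 at Tbr1 and 3 of 17 at Eomes overlapped a peak at E18.5. In the whole E15.5 lists, 21.8% of ARID1B peaks, 65.8% of FOXP1 peaks and 5.02% of TCF7L2 peaks had none, so that loss from the list was common for FOXP1 across the genome. As recovered from the lists, the FOXP1 ChIP reads numbered 64.5 M at E15.5 and 46.9 M at E18.5. At E18.5 the input was the smaller library, with 26.3 M, and the ChIP reads were scaled down to it. The part of depth in these counts was not tested.

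Where FOXP1 had a peak at both stages, the heights can be set beside all such pairs. The log2 ratio at the Tbr1 promoter was −1.82 (3.94 over 13.9), and 0.7% of 13017 promoter pairs had a lower value, their median being −0.33. At −22.6 kb of Eomes the log2 ratio was −1.05, with 1.5% of 8870 distal pairs below it and a median of −0.22. At −148 kb of Tbr1 it was −0.75, with 7.8% of distal pairs below. These 3 places had lower ratios than the median pair of their kind. The pairs were not matched for height at E15.5, so that these shares do not place them among peaks of like height. Of the highest distal FOXP1 peaks at E15.5, some fell, as from 35.7 to 6.59 and 27.5 to 7.47, and some rose, as from 32.7 to 46.5. The promoters of neighbouring genes had −0.45 (Psmd14, at the start of its gene body), −0.23 (Golga4) and 0.06 (Itga9), with 32.7%, 64.4% and 91.0% of promoter pairs below. Just past the 3′ end of Tbr1 the ratio was −0.41, with 30% of distal pairs below. In the Tbr1 region FOXP1 also had a higher peak at E18.5, named after its values were seen, about 40 kb upstream of Tbr1, in promoter windows of an internal Psmd14 start and of the miRNA gene Gm22403, where the fold of 7.21 (E15.5) stood against 10.7 (E18.5, log2 ratio 0.57, above 99.3% of promoter pairs).

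All TCF7L2 peaks of E15.5 within Tbr1 overlapped a peak at E18.5. Those from chr2:61803387-61805528 to the middle of the gene (3.68 to 5.35) joined at E18.5 into 1 peak of 4374 bp with a fold of 6.13. The promoter peak upstream of these stayed separate, with 3.48 at E15.5 and 4.05 at the later stage. A low peak between them and the last exon had 3.58 at E15.5 and 3.28 at the later stage (log2 ratio −0.12, above 21.5% of distal pairs), and another, of 3.17, was called at E18.5 alone. Over the last exon the log2 ratio was 0.18, above 70.1% of distal pairs, and the intervals of the stages overlapped.

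**Figure D4:**
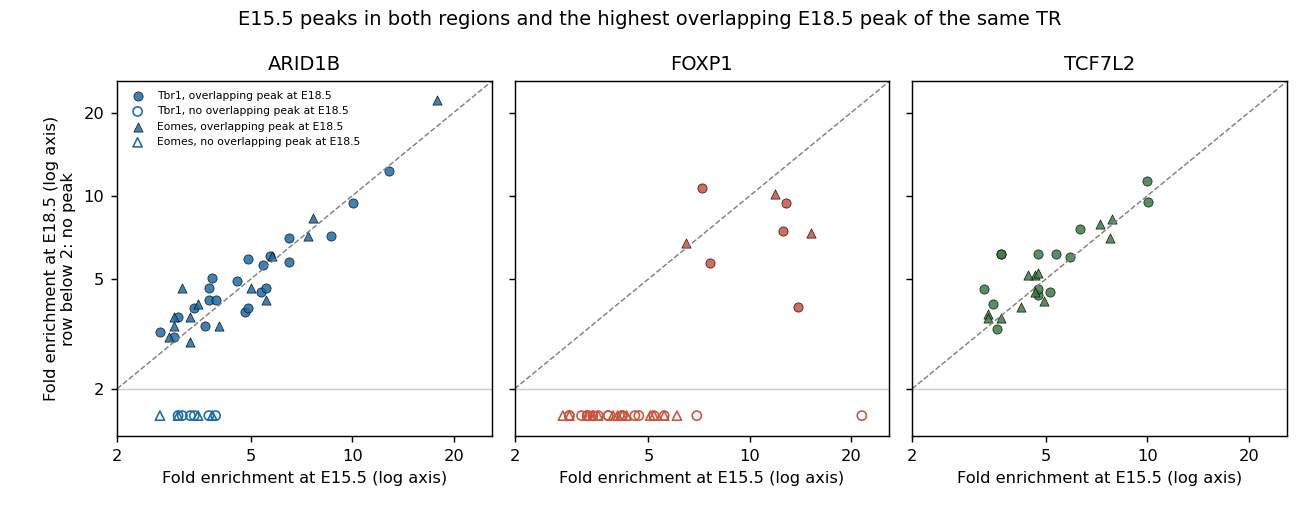
Fold enrichment at E15.5 (horizontal) against that of the overlapping peak at E18.5 (vertical), both on log axes, for each TR, with circles for the Tbr1 region and triangles for the Eomes region. Open symbols in the bottom row are E15.5 peaks with no overlapping peak at E18.5, and the dashed line marks equality. The bottom row holds 19 FOXP1 peaks at Tbr1 and 14 at Eomes, 6 and 4 ARID1B peaks and no TCF7L2 peak, and the Tbr1 last exon, at 21.5 for FOXP1, lies farthest to the right in it.

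Since both members encode T-box factors, the windows of 200 bp around summits were searched on both strands for the consensus sequences of the study's motif table. The Eomes consensus, ATTAACACCT, occurred exactly in 131 of 314936 windows (0.0416%), and 5 of these lay in the regions of the members, 3 of 83 windows at Eomes and 2 of 116 at Tbr1. The 5 windows hold 2 genomic sites. The Tbr1 consensus occurred exactly in 1 of 116 windows at Tbr1 (0.862%) and 0 of 83 at Eomes, against 0.0943% of all windows. That match, chr2:61796242-61796251 at −8.21 kb of Tbr1, lay under a peak of ARID1B at E18.5 with a fold of 2.81. The Eomes consensus at −88.2 kb of Eomes (chr9:118390033-118390042, intergenic) lay under low peaks of ARID1B (2.95) and FOXP1 (2.91) at E15.5 and of ARID1B (3.65) at E18.5. It is followed 40 bases on by a second run with 1 mismatch, as the capitals in the printed window show. The Eomes consensus at −53 kb of Tbr1 (chr2:61751495-61751504, in a Psmd14 intron) lay in the summit windows of ARID1B (3.79) and TCF7L2 (2.74) at E18.5, and within E15.5 peaks of ARID1B (4.82) and FOXP1 (3.29) whose summit windows did not hold it. Of the 5 peaks with a site in the summit window, counted from the top, those of ARID1B at E18.5 ranked at 66.1% (Eomes site) and 60.9% (Tbr1 site) of their list, and the other 3 peaks at 83.9% to 91.9% of theirs.

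With at most 1 mismatch, the Eomes consensus was found in 13 of 116 windows at Tbr1 (11.2%) and 3 of 83 at Eomes (3.61%), against 1.08% of all windows. The Tbr1 consensus was found in 14 windows at Tbr1 (12.1%) and 3 at Eomes (3.61%), against 2.42%. The motifs overlap by 9 bases where both match, and the windows of several lists share sites, so that these come to 9 distinct places at Tbr1 and 2 at Eomes. Of the 9, 1 is the −148 kb locus, where 4 of the 6 windows hold the run GAGGTGTTAAA. The highest folds among peaks with another match at Tbr1 in their summit window were 2.81 to 5.53. The windows of the 2 highest peaks, in the last exon of Tbr1 and at −22.6 kb of Eomes, had no match. These shares are descriptions of letters and not of binding.

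Motifs of the precipitated TRs were searched in the same way. The FOXP1 consensus was found exactly in 1 window at Tbr1 and 3 at Eomes (0.862% and 3.61%, against 0.902% of all windows), none of them a window of a FOXP1 summit. The 3 windows at Eomes hold a single site, at chr9:118487801-118487812, which lies within a FOXP1 peak at E15.5 (fold 5.06) but away from its summit. With at most 1 mismatch the shares were 16.4% and 7.23%, against 14.6%. The TCF7L2 consensus had no exact match in the members' windows (0.139% of all windows), and with at most 1 mismatch was found in 1.72% at Tbr1 and 0% at Eomes, against 2.58%.

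Among the other 15 T-box genes of the family list, Tbx3, Tbx6 and Mga had a promoter peak in all 6 lists, as Tbr1 did, and Tbx18 in 5, as Eomes did. Tbx2, Tbx5, Tbx15 and Tbx20 had one in 4 lists and Tbx1 and Tbx4 in 2. T, Tbx10, Tbx19, Tbx21 and Tbx22 had none. The list mixes genes with known roles in mesoderm, heart and limb with Mga, a broadly expressed partner of MAX. The FOXP1 fold of Tbr1 at E15.5 (13.9) was the highest promoter value of the family, followed by Mga (13), and the others with a promoter peak had their highest value between 3.61 and 6.35. At E18.5 FOXP1 had a promoter peak at 3 of the 15 other genes, against 55% of all protein-coding genes. The folds were 4.53 (Tbx3), 5.12 (Tbx6) and 7.62 (Mga), all above the 3.94 of Tbr1. The interval of Tbr1 (2.64 to 5.69) took in the folds of Tbx3 and Tbx6. Among T-box genes with a FOXP1 promoter peak at both stages, Tbr1 had the widest gap between them.

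The other 6 regulators of the glutamatergic lineage on the list, Pax6 of radial glia, the proneural factor Neurog2, Insm1 of intermediate progenitors, and Neurod1, Neurod2 and Neurod6 of differentiating neurons, were marked at the promoter in each of the 6 lists. Their FOXP1 folds at E15.5 ranged from 7.85 (Pax6) to 14.4 (Insm1), with Tbr1 (13.9) near the top and Eomes (5.19) below all of them. At E18.5 their FOXP1 folds were 4.68 (Neurod6) to 7.03 (Neurod2), all above Tbr1 at 3.94. The interval of Tbr1 (2.64 to 5.69) took in the folds of Neurod6, Pax6 and Neurod1. ARID1B was highest at Neurod1 (9.97 and 10.1) and Neurod2 (9.61 and 10.8), above both members. Insm1 had the highest TCF7L2 values, 9.53 and 12.3. All 6 were lower for FOXP1 at E18.5 than at E15.5, as were most promoters, with an upper quartile of −0.15 for the log2 ratio over all FOXP1 promoter pairs.

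**Figure D5:**
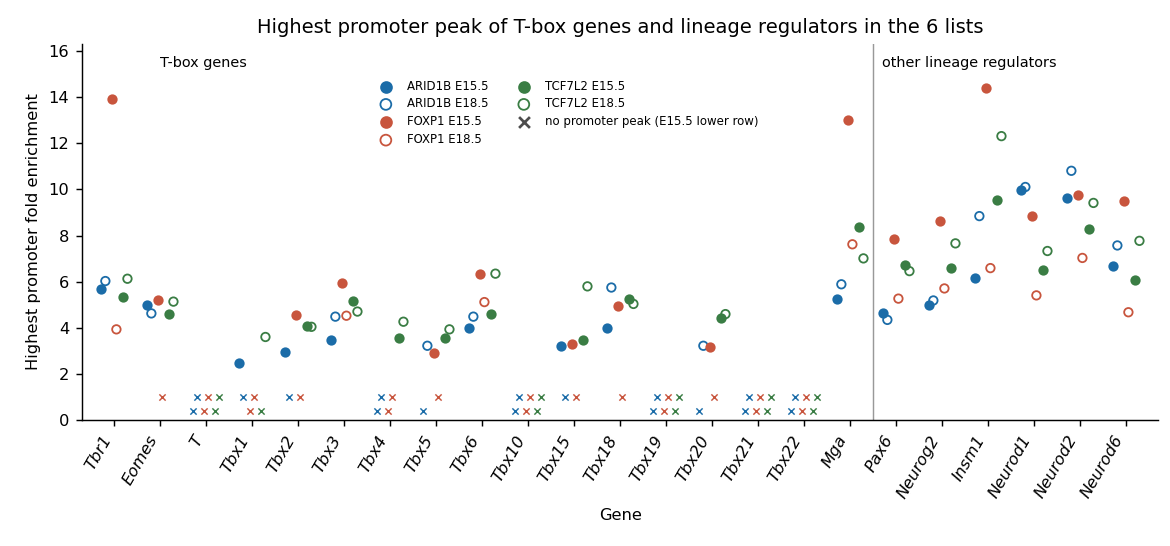
Highest promoter fold enrichment of 17 T-box genes and 6 other regulators of the glutamatergic lineage for each TR, with filled symbols for E15.5, open symbols for E18.5 and crosses where a list held no promoter peak. Tbr1 has the highest FOXP1 value of the T-box genes at E15.5 (13.9) and lies below the 6 lineage genes at E18.5 (3.94), and Eomes lies between 4.62 and 5.19 where it has a peak.

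Profiles of promoter height most like those of the members were sought among 11376 protein-coding genes with a promoter peak in all 6 lists, by Euclidean distance over log2 folds. Closest to Tbr1 over 6 lists were Zscan25 (0.54), Aspdh (0.62) and Gstm7 (0.70). Their FOXP1 folds were 9.24 to 14.8 at E15.5 and 4.38 to 4.97 at E18.5, beside medians of 10.6 and 8.65 over genes with a FOXP1 promoter peak. Closest to Eomes over the 5 lists in which it had a peak were Pcdhac2 (0.13), Vsnl1 (0.14) and Rgs6 (0.15), with a FOXP1 peak at E18.5, absent at Eomes, being a condition of the search. The distance between Tbr1 and Eomes over those 5 lists was 1.52, against 0.13 to 0.15 for the genes named as closest to Eomes. Whether Eomes is close to Tbr1 among all genes was not tested. The search could not return Eomes, because candidates needed a promoter peak in all 6 lists.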

How the data were processed

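ChIP-seq of ARID1B, FOXP1 and TCF7L2 from wild-type mouse cortex was analysed from 6 deposited peak lists, 1 for each TR and stage. Per the methods and labels, alignment to GRCm38 (mm10) used BWA 0.7.15, low-quality alignments were dropped with SAMtools, and the authors ran MACS2 2.2.7 for narrow peaks on merged replicates against matched input, with no model and no local background. The treatment of duplicates was not given in the sources read here. The lists are filed under the first replicate, and show no spread between replicates.

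The deposited values used were the fold enrichment ratio at each summit and the −log10 p-value that the authors obtained from MACS2. The −log10 q-value and the score deposited beside them were not used. Background and reads at a summit were recovered from the Poisson relation of fold and p, which gave 100% of the value pairs within 0.01 of −log10 p, and 95% intervals are exact Poisson intervals on those reads. Shares have Wilson intervals.

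Peaks overlapping by at least 1 base were joined into loci. Promoters were the 2000 bp upstream of any TSS. Windows and sequences were read from GRCm38. The scripts ran on Python 3.11.15, NumPy 2.4.6, SciPy 1.17.1, Biopython 1.88 and Matplotlib 3.10.9 and were tested on simulated data. Members, gene lists and settings were chosen with earlier results of these data known. Named were the members, genes with a TSS in their regions, the T-box and lineage lists, the 3 closest profiles for each member, and for each member the 5 loci found in the most lists and, among those, with the highest peak.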

Additional observations from a re-analysis of the deposited data

How the results depend on the processing

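Of 46 alternative values, 26 lay within the tolerance set for them and 20 outside it. The tolerance was a factor of 1.5 for counts and the 95% binomial interval for the share of genes below a region, so that a count within it may still have changed by up to that factor. With only peaks of −log10 p of at least 15, the Tbr1 region held 49 peaks and the Eomes region 31. The Eomes promoter then had a peak in 3 lists, loci with all 3 TRs numbered 5 (E15.5) and 1 (E18.5) at Tbr1 and 3 (E15.5) at Eomes, and the regions lay above 73.9% and 52.8% of genes. With lists cut to equal size, the peaks numbered 58 and 40, loci with all 3 TRs at E15.5 numbered 5 at both genes, and the regions lay above 71.7% and 54.6% of genes. With a flank of 100 kb, Eomes held 51 peaks and 5 loci with all 3 TRs at E15.5, and the regions lay above 86.2% (Tbr1) and 66.9% (Eomes) of genes. Joining summits within 250 bp left 5 loci with all 3 TRs at Tbr1 at E15.5. Exact consensus matches were found in 9 windows and matches with at most 1 mismatch in 44. Stricter peak sets and narrower flanks hold fewer peaks by construction. The Tbr1 promoter kept a peak in 5 or 6 lists under every alternative tried.

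No paired analysis was possible because each peak list was made from merged replicates and no result comes from a test. For the same reason no replicate was left out. The FOXP1 list at E18.5 had the fewest background reads (2.81) and the highest lowest fold (3.21), and a missing peak there says only that none was called at this depth. The part of depth was not tested.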
